A study of Homo sapiens with 2 samples.

Results

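Isolated strong truncation sites are the places in an SRSF1 HITS-CLIP list with a tall pile of truncated tags and no other listed site nearby. The members were chosen by their measured tag count and by their spacing: a truncation site with 10 or more truncated tags and no other listed site, of either kind, within 1000 nt on the same strand, measured between interval midpoints. They numbered 437 of the 6754 sites that the authors deposited (6.47%, 95% exact interval 5.90 to 7.08%), and 437 of the 4731 truncation sites (9.24%). The comparison set was the 2539 isolated truncation sites with 4 to 9 truncated tags, called weak here, against which the 437 are called strong.

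The study holds 2 SRSF1 HITS-CLIP libraries, replicates 1 and 2 of 1 group, with no control library among the labels. Both were made from H1299, an established human lung carcinoma cell line, and no drug, genotype change or time course is named. The replicates are merged in a single deposited list, so each value below belongs to both libraries together and has no replicate spread. Sites are the units of every test, which measures counting error within that list and not variation between cultures.

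SRSF1 is a member of the SR protein family, splicing factors that carry RNA-recognition motifs and a tail rich in arginine and serine. It is known for binding purine-rich enhancer sequences in exons, where it helps recruit the splicing machinery, and also for roles in nuclear export, translation and decay of messenger RNA. In HITS-CLIP, ultraviolet light fixes a protein onto RNA it contacts in the cell, and the RNA pieces recovered with the protein (tags) are sequenced. A peptide left on the RNA can stop the reverse transcriptase, so that tags pile up with the same truncated end at the crosslinked base. In the row names PH is read here as the number of truncated tags at the site and PH0 as the number expected per position of the tag cluster, a stretch of overlapping tags. That reading follows the naming of the CTK toolkit and is not stated in the labels.

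Gene names, exon or intron position and the RNA sequence under each site were not analysed here, because the list uses build hg19 and the annotation at hand is for another build. Sites are therefore given by hg19 position and strand, counted from 1.

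Most of the strong sites lay close to the count that defined them. The median over the 437 members was 11 truncated tags, with quartiles of 10 and 14 and a maximum of 30. There were 123 sites at 10 tags and 101 at 11, so 224 of 437 (51.3%, 46.5 to 56.0%) stood within 1 tag of the threshold. A further 98 sites (22.4%, 18.6 to 26.6%) had 15 tags or more. Just outside the threshold, 166 isolated sites had 9 tags and 208 had 8. From 8 to 11 tags the numbers fell at each step with no gap at the threshold, as the plot of sites by tag count shows, so strong and weak are parts of 1 range and not separate classes.

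**Figure D1:**
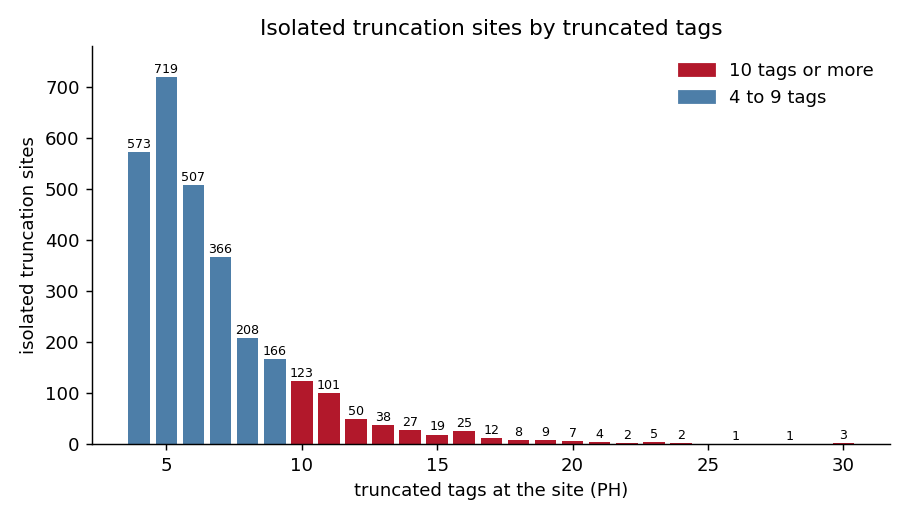
Number of isolated truncation sites (vertical axis) at each number of truncated tags (horizontal axis), in red for 10 tags or more and in blue for 4 to 9. The count runs from 166 sites at 9 tags to 123 at 10 without a break, and 3 sites reach 30 tags.

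Tall truncation sites were isolated in a smaller share than low ones. Of all 1002 truncation sites with 10 or more tags, the 437 isolated ones made up 43.6% (40.5 to 46.7%), whereas 2539 of 3729 sites with 4 to 9 tags were isolated (68.1%, 66.6 to 69.6%). The isolated share was 81.4% at 4 tags, 64.8% at 6 tags, 49.9% at 10 to 14 tags (339 of 680), 33.3% at 15 to 19 tags (73 of 219) and 24.3% at 20 tags or more (25 of 103). It was lower in each successive class of tag count. Both measures belong to the rule, so these shares are a description and were not tested. The 565 tall sites with a neighbour within 1000 nt reached 42 tags, with a median of 13, and 224 of them (39.6%) had 15 tags or more. Their median distance to the nearest site was 61 nt.

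The sites on either side of the distance limit, picked after their values were seen, were the following. The strong sites just inside it lay on chromosome 8 minus strand at 124382160 to 124382180 (11 tags, nearest site 1018 nt away), chromosome 11 plus strand at 61914141 to 61914161 (11 tags, 1031 nt) and chromosome 17 minus strand at 74731208 to 74731228 (12 tags, 1061 nt). The nearest ones outside it were at chromosome 16 plus strand, 89756987 to 89757007 (10 tags, 912 nt), and chromosome 4 plus strand, 88814602 to 88814622 (11 tags, 896 nt). No strong site had its nearest neighbour between 912 and 1018 nt away. All 437 members were intervals of 21 nt, and each was the only truncation site of its tag cluster. Each of the 2539 weak sites was likewise the only truncation site of its cluster.

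The sites with the most tags were scattered over the genome; their distances are given on the same strand. A site on chromosome 22 plus strand, 31924737 to 31924757, had 30 truncated tags where 0.86 were expected per position, and its nearest listed site lay 84618 nt to the 3′ side with 4 tags. Chromosome 2 minus strand, 98663392 to 98663412, also had 30 tags, with 1.24 expected. Chromosome 9 minus strand, 87514748 to 87514768, again had 30 tags, with 1.27 expected. The chromosome 2 site was 51097 nt from its nearest neighbour and the chromosome 9 site 1177705 nt. These 3 sites share the highest count of the part but differ in the distance to the next site on their strand.

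Next in height was chromosome 18 plus strand, 23670138 to 23670158, with 28 tags and 1.23 expected. No other listed site lay on that strand within 2926993 nt of it. Chromosome 2 minus strand, 203211066 to 203211086, had 26 tags and 0.74 expected, at 966188 nt from the nearest site. Chromosome 4 minus strand, 174253291 to 174253311, had 24 tags and 1.23 expected, with 3326527 nt to the nearest site. On the same strand, the nearest neighbour of each of these 3 was a low truncation site, of 6, 4 and 6 tags in turn. On the opposite strand, the chromosome 2 site had a truncation site of 12 tags 42963 nt away.

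The rest of the 12 highest sites were of both kinds, near to other sites and far from them. Chromosome 22 minus strand, 30738299 to 30738319, had 24 tags with a site of 4 tags 3148 nt to its 3′ side. Chromosome 12 minus strand, 56817469 to 56817489, had 23 tags against 0.42 expected, the highest ratio among the 12 (54.8), with a site of 7 tags 1451 nt to its 5′ side. Chromosome 6 plus strand, 30550165 to 30550185, had 23 tags, and 5 other sites lay within 10000 nt on its strand. These 3 were the members of the 12 with a neighbour within 10000 nt. The remaining 3, each with 23 tags, lay on chromosome 16 minus strand at 8009224 to 8009244 (nearest site 91743 nt away, with 16 tags), chromosome 8 minus strand at 109304653 to 109304673 (930551 nt) and chromosome X minus strand at 76907825 to 76907845 (12367 nt). Of the 12, only the chromosome 16 site had a nearest same-strand neighbour of 10 tags or more.

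Strong sites also sat in deeper clusters. The expected number per position had a median of 0.38 tags at strong sites (quartiles 0.28 and 0.55, range 0.11 to 2.22) and of 0.15 at weak ones (0.10 and 0.21, range 0.04 to 1.07). Dividing PH by PH0 gave a median ratio of 32.3 at strong sites (quartiles 23.4 and 42.3) and 38.5 at weak ones (29.4 and 46.2). Among the listed isolated sites, strong ones thus had more tags but not a higher ratio. A ratio of 50 or more was seen at 57 of 437 strong sites (13.0%) and 578 of 2539 weak ones (22.8%), and a ratio under 20 at 64 (14.6%) and 107 (4.21%). The lowest count in the list is 4 tags, and the expected number comes from the same cluster as the count, so these values follow in part from the rule and no test was made. No weak site had a P above 9.98e-04, and no isolated site of 4 tags had a PH0 above 0.12. Sites of few tags were thus listed only at a low PH0, which shapes the contrast in PH0 and in ratio. PH0 is given to 2 decimals, which makes the ratio coarse at weak sites with a PH0 as low as 0.04.

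**Figure D2:**
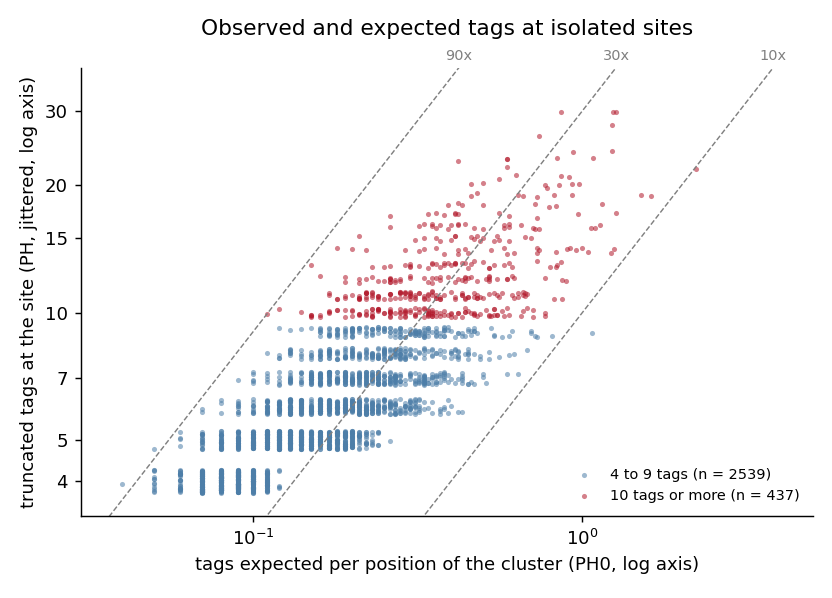
Truncated tags at each isolated site (vertical axis, log scale, points jittered) against the tags expected per position of its cluster (horizontal axis, log scale), red for strong and blue for weak sites, with dashed lines at 10, 30 and 90 times the expected number. All strong sites but 1, at a PH0 of 2.22, lie above the line of 10 times the expected number.

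Within the strong sites the same order held. The 224 sites with 10 or 11 tags had a median PH0 of 0.315 and a median ratio of 33.3. The 115 sites with 12 to 14 tags had 0.41 and 31.7, the 73 with 15 to 19 tags had 0.49 and 31.9, and the 25 with 20 to 30 tags had 0.85 and 25.6. Expected tags were higher in each taller class, and the ratio was lowest in the tallest. Seen from the cluster, 32 of 1899 isolated sites with a PH0 of at most 0.2 were strong (1.69%), against 123 of 180 (68.3%) with a PH0 above 0.4 and up to 0.6, and 16 of 17 above 1. Much of this rise is built into the list and was not tested. Isolated sites of 4 tags had a PH0 of at most 0.12 and those of 5 tags at most 0.26. The higher PH0 classes therefore held none of them.

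The ratio of observed to expected tags reached its highest value on chromosome 7. Chromosome 7 minus strand, 99771265 to 99771285, had 10 tags where 0.11 were expected, a ratio of 90.9. Chromosome 15 minus strand, 90402428 to 90402448, had 13 tags and a ratio of 86.7, and chromosome 1 minus strand, 154918664 to 154918684, had 10 tags and a ratio of 83.3. At these sites the truncated tags exceeded a low expected number.

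At the other end, chromosome 12 minus strand, 34372656 to 34372676, had 22 tags with 2.22 expected, a ratio of 9.91 and the highest PH0 of all 437 members. Chromosome 20 minus strand, 4804730 to 4804750, had 14 tags and a ratio of 11.2, and chromosome 2 minus strand, 118721983 to 118722003, had 14 tags and a ratio of 11.5. Each of these 3 clusters carried more than 1 expected tag per position, and 17 of the 437 strong sites (3.89%) had 1 or more.

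The authors' P at strong sites ran up to 3.81e-06, with a median of 1.55e-11. At 62 of the 437 sites (14.2%, 11.1 to 17.8%) it stood at 1e-100, and the next lowest value was 1.11e-16, so P does not order the strongest sites among themselves. No weak site had the value 1e-100. P is computed from the tag count that chose the members and was not tested.

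Distance to the next site, beyond the 1000 nt that the rule fixes, was free to vary. The nearest site on the same strand lay at a median of 54733 nt from a strong site (quartiles 6912 and 418450, highest 5353149) and 62102 nt from a weak one. Another site lay within 10000 nt of 132 of 437 strong sites (30.2%, 25.9 to 34.7%) and of 666 of 2539 weak ones (26.2%, 24.5 to 28.0%). The difference was 3.98 percentage points (95% interval -0.497 to 8.74, Fisher's exact two-sided p = 0.0899, adjusted p = 0.24 over 8 comparisons). At the far end, 61 strong sites (14%) and 282 weak ones (11.1%) had no other site within 1000000 nt on their strand, a difference of 2.85 points (-0.352 to 6.60, Fisher's exact p = 0.0886, adjusted p = 0.24). Neither difference passed the test. The intervals leave room for strong sites to be up to 8.74 points more often near another site.

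**Figure D3:**
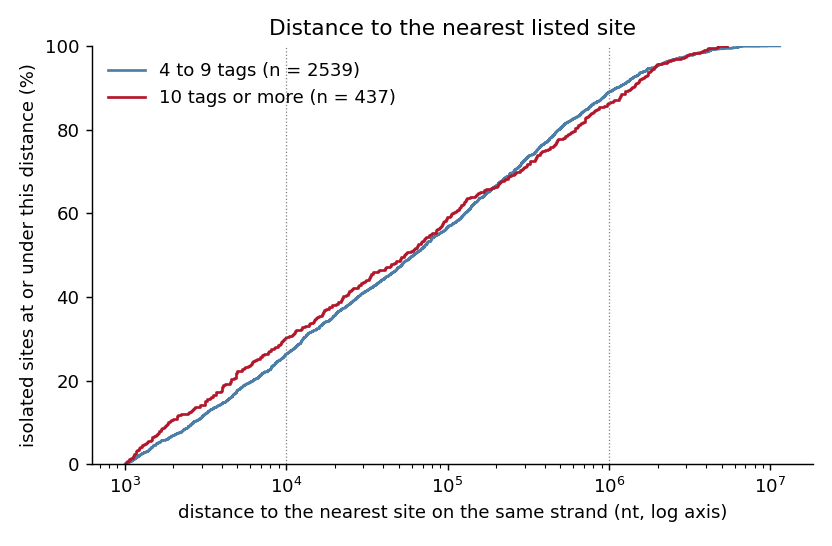
Cumulative share of isolated sites (vertical axis, percent) by distance to the nearest listed site on the same strand (horizontal axis, nt, log scale), red for strong and blue for weak sites, with dotted lines at 10000 and 1000000 nt. The red curve is above the blue one at 10000 nt (30.2% against 26.2%) and below it at 1000000 nt, and the curves cross in between.

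Between these ends, 125 strong sites (28.6%) had their nearest neighbour 10 to 100 kb away and 119 (27.2%) 100 kb to 1 Mb away. Within 100000 nt on the strand, 180 strong sites had no other listed site (41.2%), 83 had 1, 56 had 2 and 118 had 3 or more (27.0%). Of the 25 sites with 20 tags or more, 7 (28.0%, 12.1 to 49.4%) stood over 1 Mb from any other site on their strand, against 30 of the 224 with 10 or 11 tags (13.4%, 9.22 to 18.6%). The exact intervals of these shares overlap, and the difference was not tested.

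By distance on its own strand, the most remote member with a site on both sides was on chromosome 20 plus strand at 17992745 to 17992765. It had 17 tags where 0.26 were expected, a ratio of 65.4, and its nearest same-strand neighbour lay 5353149 nt away, while a minus-strand truncation site of 5 tags lay 49240 nt away. Chromosome 5 plus strand, 21975493 to 21975513, had 14 tags and stood 4700000 nt from the nearest site on its strand and 5039344 nt from the nearest on the other. Chromosome X plus strand, 123191726 to 123191746, had 10 tags, with 4633931 nt to the nearest site on its strand and 381078 nt to the nearest on the other. Tag counts at these 3 sites spanned 10 to 17.

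Where a strong site did have a neighbour within 10000 nt, that neighbour was more often than not a low truncation site. Such sites, of 4 to 9 tags, also made up most of the whole list (3729 of 6754), so this is not a trait of strong sites. The median distance of these 132 neighbours was 3230 nt. Truncation sites made up 102 of them, with a median of 7 tags (quartiles 6 and 9, highest 21), and mutation sites, where a tag carries a misread base, the other 30, covered by a median of 6 tags. For the 666 weak sites with such a neighbour, the 489 truncation neighbours had a median of 6 tags (quartiles 5 and 8, highest 24). The neighbour, isolated or not, had 10 or more tags in 25 of 102 cases beside a strong site (24.5%, 16.5 to 34.0%) and in 80 of 489 beside a weak one (16.4%, 13.2 to 19.9%). This difference of 8.15 points did not pass the test (Fisher's exact p = 0.0633, adjusted p = 0.24). Its Newcombe interval, which is computed apart from the test, ran from 0.018 to 17.8 points, and neighbouring sites that name each other enter it once each. Of all truncation sites in the list, 1002 of 4731 had 10 or more tags, a share between those beside strong and weak sites. Over all distances the nearest site was a truncation site for 311 strong sites (71.2%) and 1737 weak ones (68.4%), a difference of 2.75 points (-2.01 to 7.20, Fisher's exact p = 0.264, adjusted p = 0.52). Both shares are near that of truncation sites in the whole list, 4731 of 6754.

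No difference in side or strand was detectable. The nearest site within 10000 nt lay 3′ of 65 of 132 strong sites (49.2%, 40.4 to 58.1%) and of 337 of 666 weak ones (50.6%), a difference of -1.36 points (-10.6 to 7.88, Fisher's exact p = 0.849). The plus strand carried 213 strong sites (48.7%, 44.0 to 53.5%) and 1304 weak ones (51.4%), a difference of -2.62 points (-7.66 to 2.45, Fisher's exact p = 0.325).

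Some strong isolated sites neighboured one another. For 37 of the 437 members (8.47%) the nearest listed site was itself a member, within 10000 nt in 17 of these cases. Members made up 6.47% of all listed sites and 9.24% of truncation sites, so the share of 8.47% is near those shares. The matching share for weak sites was not computed. There were 10 pairs of members that were each other's nearest site. The following examples were chosen after their values were seen, as the closest such pairs. Chromosome 17 minus strand held 12 tags at 74731208 to 74731228 and 11 tags at 74732269 to 74732289, 1061 nt apart. Chromosome 5 minus strand held 12 tags at 180668881 to 180668901 and 11 tags at 180670350 to 180670370, 1469 nt apart. Chromosome 10 minus strand held 11 tags at 96116325 to 96116345 and 10 tags at 96117961 to 96117981, 1636 nt apart. The tag counts within each of these pairs differed by 1, but 224 of the 437 members had 10 or 11 tags. Not all neighbouring members were so alike. On chromosome 11 plus strand, the member at 61915945 to 61915965 had 18 tags and its nearest site, a member 1804 nt away, had 11. Likeness of counts between neighbours was not tested.

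Opposite-strand neighbours were rare. No strong site had a listed site on the other strand within 1000 nt (0 of 437, exact interval up to 0.841%), against 2 of 2539 weak sites (0.0788%, Fisher's exact p = 1). The 3 nearest cases all fell on chromosome 16 minus strand. The site at 30005744 to 30005764 had 11 tags and a plus-strand truncation site of 6 tags 2129 nt away. The site at 54319167 to 54319187 had 11 tags and a plus-strand mutation site 2283 nt away, and the site at 30932594 to 30932614 had 10 tags and a plus-strand mutation site 2901 nt away. Both of these mutation sites rested on 2 mutated tags.

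The list also shows how many tag clusters were numbered around each member, its own included, through the cluster numbers in the row names. These numbers never decreased along a strand, so the step between the truncation sites on either side, divided by their distance, gives the clusters numbered per 10 kb. Around the 427 strong sites with a truncation site on both sides the median was 1.66 clusters per 10 kb (quartiles 0.632 and 4.70, range 0.102 to 97.2), and around 2478 weak sites 1.68 (0.716 and 4.87). Values above the median of all isolated sites were found at 213 of 427 strong sites (49.9%) and 1239 of 2478 weak ones (50%), a difference of -0.117 points (-5.23 to 5, Fisher's exact p = 1). A strong site was therefore not detectably more often in a stretch dense in clusters than a weak one.

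**Figure D4:**
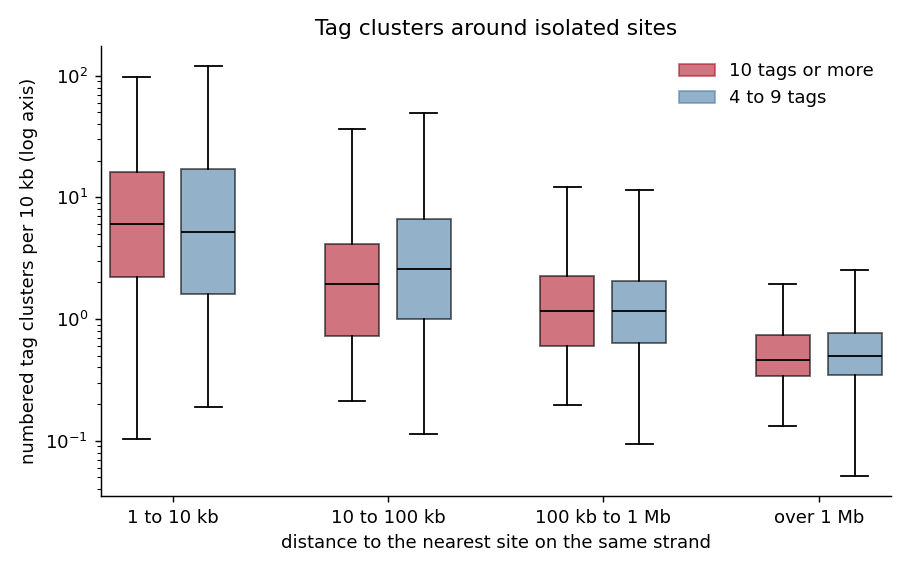
Numbered tag clusters per 10 kb around isolated sites (vertical axis, log scale) in 4 classes of distance to the nearest site on the same strand (horizontal axis), red for strong and blue for weak sites. Boxes show quartiles and median and whiskers the full range; the strong-site median is 6.03 in the nearest class and 0.463 in the farthest.

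Cluster density followed distance in both sets, which share the listed sites that both measures are taken from. Part of this order is built in. The density is divided by the stretch between flanking truncation sites, and that stretch must be longer where the nearest site is farther. Strong sites with a neighbour at 1 to 10 kb had a median of 6.03 clusters per 10 kb (130 sites), those at 10 to 100 kb 1.93 (122 sites), those at 100 kb to 1 Mb 1.16 (116 sites) and those over 1 Mb 0.463 (59 sites). Weak sites had 5.18, 2.59, 1.18 and 0.493. Tag counts did not follow the same order: the median at strong sites was 12, 11, 11 and 12 tags in the 4 classes, and the median PH0 was 0.40, 0.35, 0.41 and 0.41.

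The densest and sparsest surroundings were picked after their values were seen. Chromosome 8 minus strand held the top 2, at 144672253 to 144672273 (11 tags, 97.2 clusters per 10 kb) and at 144899205 to 144899225 (18 tags, 96.4 clusters per 10 kb). The next was chromosome 1 minus strand at 6529232 to 6529252, with 10 tags and 82.9 clusters per 10 kb. The sparsest was chromosome 1 plus strand, 145277432 to 145277452, with 20 tags and 0.102 clusters per 10 kb over a stretch of 25.6 Mb between the flanking truncation sites. That low value came from a long stretch on 1 side, since a site of 8 tags lay 4531 nt to its 3′ side. Stretches were taken at full length, with no allowance for unsequenced parts of the build. A low value therefore need not mean few clusters in the sequenced part. The chromosome 12 site with the lowest ratio had 0.140 clusters per 10 kb. The member with the most company was chromosome 8 minus strand, 144991617 to 144991637, with 10 tags, no site within 1000 nt and 29 other sites within 10000 nt.

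All chromosomes but Y, which had no isolated truncation site of any count, carried members. The mitochondrial sequence carried none, with only 2 isolated truncation sites. Chromosome 1 had the most, 50 of its 260 isolated truncation sites (19.2%, 14.6 to 24.6%), followed by chromosome 12 with 40 of 203 (19.7%, 14.5 to 25.9%). Chromosomes 5 and 19 had 27 each. Chromosomes 10 and 15 had 7 each, out of 89 (7.87%, 3.22 to 15.5%) and 82 (8.54%, 3.50 to 16.8%), and chromosomes 13, 18 and 21 had 4 each. Over all isolated truncation sites, 14.7% (13.4 to 16.0%) were strong.

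By Fisher's exact test with Benjamini-Hochberg adjustment over 24 sequences, 0 differed in their share of strong sites (0%). At an unadjusted Fisher's exact p under 0.05 there were 2, chromosome 1 (p = 0.0347, adjusted p = 0.48) and chromosome 12 (p = 0.04, adjusted p = 0.48). The mitochondrial sequence held 10 truncation sites with 10 or more tags, none of them isolated. The tallest member had 13 tags on chromosome 13, 14 on chromosome 15 and 16 on chromosome 10, against 30 on chromosomes 2, 9 and 22. These maxima come from 4, 7 and 7 members, against 26, 14 and 8, and were not tested.

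**Figure D5:**
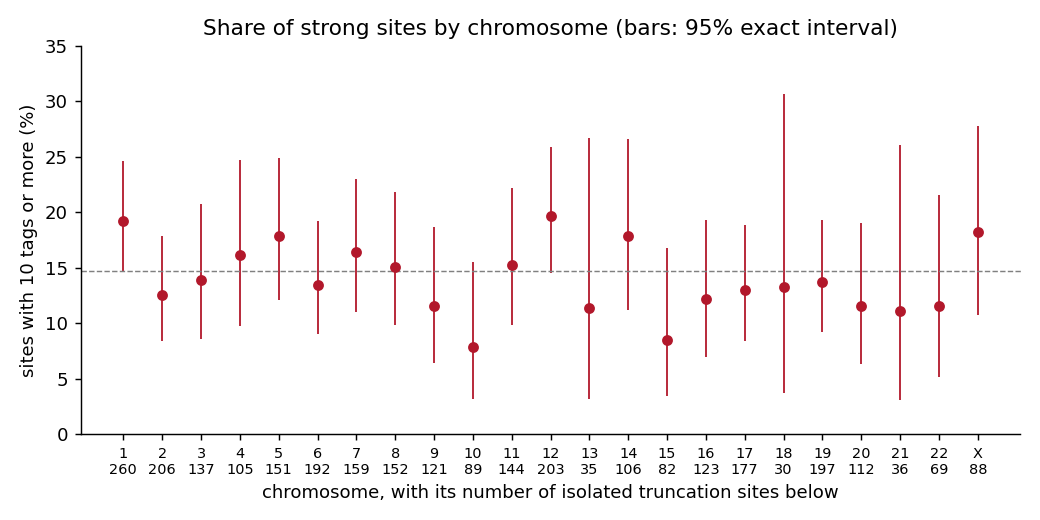
Share of isolated truncation sites with 10 tags or more (vertical axis, percent, with 95% exact intervals) on each chromosome (horizontal axis, with its number of isolated truncation sites), and the share over all of them as a dashed line at 14.7%. Points run from 7.87% on chromosome 10 to 19.7% on chromosome 12; the mitochondrial sequence, with 2 isolated sites, is left out.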

How the data were processed

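The 2 libraries of SRSF1-bound RNA were combined by the authors into 1 list of sites. Reads were processed with cutadapt and BWA 0.7 on build hg19, per the submitters' processing notes. How duplicate and multiply mapping reads were handled, and when replicates were joined, is not stated in the labels. The deposited tag count per site is a whole, unnormalised count, equal to PH or to the mutated tags in all 6754 rows. Library depth is unknown here.

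Isolation, distances and cluster densities were computed with pandas 2.3.3 and shares with SciPy 1.17.1: exact Clopper-Pearson 95% intervals, Newcombe intervals for differences, and Fisher's exact two-sided tests with Benjamini-Hochberg adjustment over 8 comparisons or over 24 sequences. The isolation rule was checked against a comparison of all pairs of sites, on a copy of the list with shifted positions. The chromosome test was checked on shuffled labels and on labels with a planted excess. Cluster densities and the 8 share comparisons had no such check. No low-value filter was applied. The members, the comparison set and the tests were chosen with earlier results of these data known, and 5 of the 8 comparisons after seeing the list. Sites were named by fixed rules: the 12 with most tags, the 3 most remote, the 3 with the highest and lowest ratio, and the 3 nearest to an opposite-strand site; other named sites are marked as chosen afterwards. Gene, motif and gene-list comparisons need an hg19 reference and were not run.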

Additional observations from a re-analysis of the deposited data

How the results depend on the processing

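With 1 combined list no replicate could be left out. No paired analysis was possible because both replicates belong to 1 group and are merged. The number of members, 437, moved to 811 with 8 tags or more, 213 with 12 or more and 98 with 15 or more. It was 305 to 482 with isolation distances of 10000 to 500 nt, and 486 when only truncation sites counted as neighbours. None of the 32 alternative values of the 8 share comparisons had an adjusted p under 0.05 (lowest 0.129), and no chromosome differed in any of the 4 alternatives run. Signs turned in a pair of them, neither past the test in any setting: the share with a nearest site on the 3′ side, -1.36 points, became 2.51 against weak sites of 4 to 5 tags, and the share whose nearest site is a truncation site, 2.75 points, became -0.598 among sites with a PH0 under 0.38. Of 35 choices set in advance, 9 need an hg19 genome or annotation and were not run. Weak sites rest on 4 to 9 tags, and the depth of the libraries is unknown.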
